A study of Mus musculus with 2 samples.

Results

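Integrins are cell-surface receptors made of an alpha and a beta chain that tie the cytoskeleton to the extracellular matrix, and laminins are trimers of an alpha, a beta and a gamma chain that polymerise into the basement membrane under epithelium and around vessels and muscle. Nidogens link the laminin network to type IV collagen, and agrin and dystroglycan bind laminin at the cell side. In the fetal lung these molecules line the branching airway tubes and the vessels beside them. The genes were chosen by name on the array: every integrin alpha or beta gene, every laminin chain with a number, and Nid1, Nid2, Hspg2, Agrn and Dag1. This gave 46 genes with 97 probes out of 27593 genes and 41167 probes, namely 17 integrin alpha chains, 8 integrin beta chains, 10 laminin chains, 4 genes for nidogens, agrin and dystroglycan, and 7 further genes whose names match the pattern although they encode integrin-binding or integrin-like proteins.

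The RNA samples were from the lung lobes of 1 male embryo homozygous for the Foxj1lacZ allele (Foxj1 –/–) and from those of 1 male heterozygous litter mate (Foxj1 +/–), both at E16.5 and on an Sv129/CD-1 hybrid background. Both animals therefore carry the lacZ allele, and no wild type lung was hybridised. The tissue outside the lobes had been removed, and 1 label field calls the material lung epithelium although whole lobes were homogenised. Foxj1 encodes a forkhead factor that drives the formation of motile cilia, and the series looks for its effectors. The homozygous RNA carried Cy5 and the heterozygous RNA Cy3 on the same array, without a dye swap, so genotype, embryo and dye cannot be told apart and no difference below has a replicate check or a p-value.

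Levels are normalized log2 intensities of each channel, and ratios are log2 of homozygous over heterozygous, so a negative ratio means a lower signal in the homozygous channel. A gene's level in each channel and its ratio are separate medians over its kept probes, so the ratio need not equal the difference of the levels. The ± values give the error that the scanner software assigns to its log ratio, which covers noise of spots and channels but not of animals. A further yardstick is the spread between different probes of the same gene, with a pooled SD of 0.27 over 7143 genes. Repeated spots were much closer, with an SD of 0.018 over the 10 spots of an Itgb1 probe and 0.029 over 9 spots of a Lama2 probe. Brightness depends on the probe as well as on the transcript, so levels are compared between channels and not between genes. In tissue pieces a lower signal can come from fewer cells of a type or from less RNA per cell, which cannot be told apart here.

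Of the array's 43379 spots, 75.6% passed the scanner's test against background in the homozygous channel and 69.0% in the heterozygous channel. Foxj1 itself had a level of 7.61 in the homozygous channel and 9.53 in the heterozygous channel (ratio −1.92 ± 0.30, 1 probe), and whether its probe lies in the part replaced by lacZ was not settled. All 6 markers of lung epithelium looked at (Cdh1, Epcam, Nkx2-1, Krt8, Krt18 and Foxa2) gave clear signal in both channels, with a median ratio of −0.05. Markers of striated and cardiac muscle were measured in both channels as well, 7 of 7, with a median ratio of −2.45. The material thus held lung epithelium together with muscle transcripts that differed between the channels.

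Of the 46 genes, 45 had signal over background, 44 of them in both channels. Itga10, a collagen receptor chain of cartilage, was not well above background in either channel. Itgb2l, an integrin beta-like gene, passed that test in the homozygous channel alone, at 6.68 there and 6.59 in the heterozygous channel. Set against 6.62, the lowest heterozygous level that passed, its homozygous signal was 1.04-fold higher, a bound of 0.058 on the log2 scale. The scanner error was 0.44, and the ratio was −0.24 when the array was scaled by a single median shift. The direction for Itgb2l is thus not settled. No probe carries the name Hspg2 (perlecan), which was not analysed here. Lamb1 is listed under an older name that the rule does not take, and its value is given only beside its partners.

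As a group these genes were close to the array as a whole. Of the 45, 3 had a homozygous signal lower by 1.5-fold or more (6.67%, against 5.87% of all 21172 measured genes) and 1 was at least 2-fold lower (2.22%, against 1.88%). None was 1.5-fold higher, where 2.10% of all genes were, and none was 2-fold higher, where 0.576% were. The share of lower genes was thus near that of the array. The 3 were Itgb3, Itga11 and Itgb4, all integrin chains, and 34 of the 45 ratios were smaller in size than the 0.27 spread between probes of a gene. The median ratio of the 45 was −0.10 against 0.00 for all genes, and 32 of them (71.1%) lay below 0 against 50.4% of all genes. That lean held with an offset of 0 (31 of 45 below 0, against 49.9% of all genes). It also held with the scanner's own log ratio (29 of 45, against 45.9%). Under another scaling it was lost. When a single median shift of the array replaced the loess fit (median centring below), which moved the median of all genes to 0.22, the members' median was 0.15 and 17 of 45 lay below 0, near the 37.1% of all genes that did so under that scaling.

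**Figure D1:**
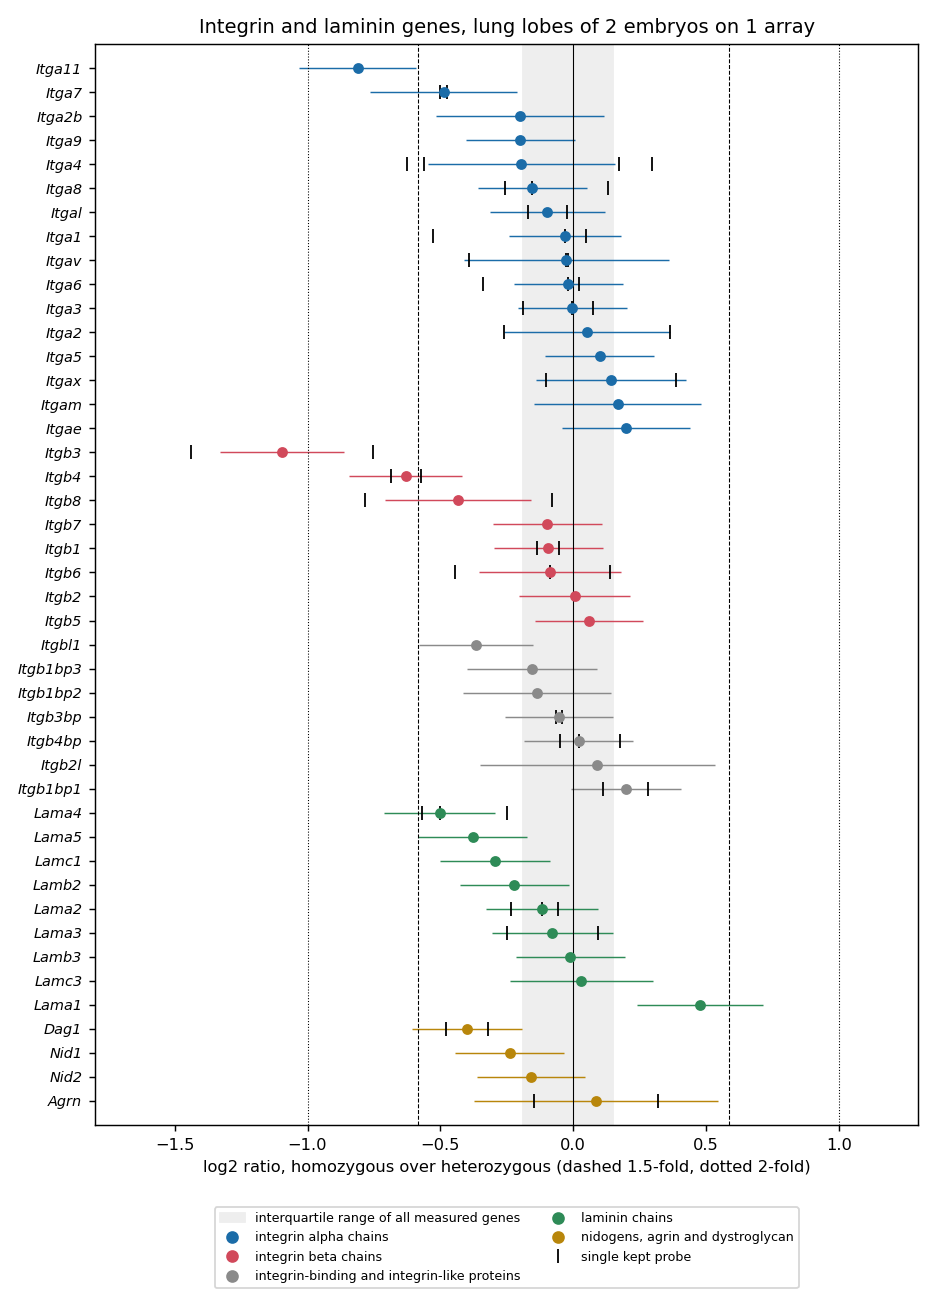
Log2 ratio of the homozygous over the heterozygous channel (x axis) for 44 of the 45 measured genes (rows, ordered within class). Dots are the median of a gene's kept probes, horizontal lines the scanner error, ticks single probes, and the grey band the interquartile range of all measured genes. Itgb3 is the only gene past the dotted 2-fold line on the lower side, and Itga11 and Itgb4 are the others past the dashed 1.5-fold line.

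The statements on single genes rest on 60-base probes, and for the genes that stood apart the first 30 bases of each kept probe are shown, because different probes of Itgb3, Itgb8 and Itga4 did not give the same ratio and those of Itgb4 are not independent of each other. Positions are those of the scanner file on mm8, with the strand on which the probe reads, and the first Itgb3 interval spans 71 bases. Exon or UTR annotation on that build was not used here. In the Itgb4 pair, capitals mark the 20 bases that both printed stretches hold, since these probes are shifted by 10 bases and share 50 of their 60 bases.
Itgb3 probe at chr11:104483266-104483336, plus strand: tgggactctctgccattatgtttacagagg
Itgb3 probe at chr11:104486448-104486507, plus strand: ccacagcaacatcagagtctttgtccattt
Itgb4 probe at chr11:115824323-115824382, plus strand: gtccaggaacCATAAAGTGGGTAGAGGTGA
Itgb4 probe at chr11:115824333-115824392, plus strand: CATAAAGTGGGTAGAGGTGAtacaaggtct
Itga11 probe at chr9:62581866-62581925, plus strand: gtttcatctgaacaatgtcatctgttcccc
Itgb8 probe at chr12:119632348-119632407, minus strand: ttccatttatttagaggaatgaccctaaca
Itgb8 probe at chr12:119606659-119606718, minus strand: gtgaacagatgaactttaatctaagcggtg
Itga4 probe at chr2:79131372-79131431, plus strand: aacttcttcaagctgatatgggcgttgaga
Itga4 probe at chr2:79124945-79125004, plus strand: ctgtaggcctaggtgaagtttggaatttct
Itga4 probe at chr2:79127555-79127614, plus strand: ttttgtgacatactcttagtgcaggggaaa
Itga4 probe at chr2:79128345-79128404, plus strand: ccttttactctgcagataggaactgtaaaa

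Among the beta chains, Itgb3 had the lowest ratio of all 45 genes, −1.10 ± 0.23, or 2.14-fold lower in the homozygous channel. Itgb3 pairs with Itga2b as the fibrinogen receptor of platelets and with Itgav as a receptor for vitronectin and other ligands. Its first probe, designed on its RefSeq transcript, read 10.08 in the homozygous and 10.83 in the heterozygous channel (ratio −0.75 ± 0.22). The second, designed on a cDNA clone further downstream, read 8.76 in the homozygous and 10.20 in the heterozygous channel (ratio −1.44 ± 0.25). Both probes were well above background in both channels and both were lower in the homozygous channel, yet only the second passed 2-fold. With the brightest probe of each gene, or with median centring (−0.63), Itgb3 was no longer 2-fold lower.

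The partners of Itgb3 had less negative ratios, though that of Itga2b rests on 1 dim probe. Itga2b, a chain of the platelet lineage, stood at 6.80 in the homozygous and 7.003 in the heterozygous channel (−0.20 ± 0.32). Itgav had a ratio of −0.03 ± 0.39 from 3 kept probes, of which the one with clear signal read 10.35 in the homozygous and 10.74 in the heterozygous channel (−0.39 ± 0.21). Other markers of platelets and megakaryocytes moved in the direction of Itgb3. Of 5 looked at, all well above background in both channels, 3 were at least 1.5-fold lower, namely the platelet chemokines Ppbp (−1.21 ± 0.24) and Pf4 (−0.63 ± 0.21) and the platelet glycoprotein Gp9 (−1.16 ± 0.24). Gp1bb, another platelet glycoprotein, was at 0.07, and the intensities of the 5 summed to 13027 in the homozygous and 20761 in the heterozygous channel. Their part in the Itgb3 ratio was not tested.

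Itgb4, the beta chain that joins Itga6 in hemidesmosomes and binds laminin under epithelial cells, was 1.55-fold lower in the homozygous channel (−0.63 ± 0.21). Its overlapping probes read 9.69 and 9.93 in the homozygous channel, against 10.26 and 10.61 in the heterozygous channel, with ratios of −0.57 and −0.69. Sharing most of their bases, these probes amount to nearly the same measurement. Without the filter on dim probes Itgb4 was at −0.57, just short of 1.5-fold. Its partner Itga6 stood at −0.02 ± 0.20, and its brightest probe read 13.27 in the homozygous and 13.29 in the heterozygous channel. Its probes with signal in both channels gave −0.02 and 0.02, while a dim probe above background in the heterozygous channel only gave −0.34. With median centring Itgb4 was at −0.14, so that its 1.5-fold difference was lost while the order of the pair held, Itga6 then being at 0.53.

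The other beta chains stayed below 1.5-fold. Itgb8, which pairs with Itgav and helps to release active TGF-beta, was at −0.43 ± 0.28 from probes at −0.78 and −0.08. The first of these read 7.94 in the homozygous and 8.73 in the heterozygous channel, the second 6.88 and 6.96 in the same channels, near background. Itgb6, the epithelial chain with a like role, was at −0.09 ± 0.27, and its 3 probes ran from −0.44 to 0.14. The Itgb6 probe that gave the median was dim, at 7.11 in the homozygous and 7.19 in the heterozygous channel. Its brightest probe read 8.89 in the homozygous and 9.33 in the heterozygous channel (−0.44 ± 0.21). The probe at 0.14 was above background in the homozygous channel only. Itgb1, the common partner of most alpha chains, read 13.53 in the homozygous and 13.67 in the heterozygous channel in its 10-spot probe (−0.13 ± 0.20) and was at −0.09 over its kept probes. Itgb5, another partner of Itgav, was the highest beta chain at 0.06 ± 0.20, with 12.94 in the homozygous and 12.88 in the heterozygous channel. The leukocyte chains lay near 0. Itgb2 read 8.65 in the homozygous and 8.64 in the heterozygous channel (0.01 ± 0.21), and Itgb7 read 8.98 in the homozygous and 9.08 in the heterozygous channel (−0.10 ± 0.21). The median of the 8 beta chains was −0.10, and 0.06 with median centring, against 0.22 for all genes under that scaling.

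Among the alpha chains, only Itga11 passed 1.5-fold. Itga11, a receptor for fibrillar collagen that pairs with Itgb1 and is known from mesenchymal cells, read 8.53 in the homozygous and 9.34 in the heterozygous channel. It was thus 1.76-fold lower (−0.81 ± 0.22), with 3.20% of all genes having a lower ratio. This rests on a single probe and a single spot, and with median centring the ratio was −0.48, short of 1.5-fold. Of the other measured collagen receptor chains, Itga1 was at −0.03 ± 0.21 with probes from −0.53 to 0.05. Itga2 was at 0.05 ± 0.31 with probes at −0.26 and 0.37. The Itga1 probe that gave the median was dim, at 6.95 in the homozygous and 6.98 in the heterozygous channel. Its brightest probe read 9.83 in the homozygous and 9.79 in the heterozygous channel (0.05). A further Itga1 probe read 9.20 in the homozygous and 9.73 in the heterozygous channel (−0.53 ± 0.21). The Itga2 probe measured in both channels read 7.38 in the homozygous and 7.64 in the heterozygous channel (−0.26). Whether these chains went with Itga11 is thus not settled. The fibroblast markers Col1a1, Col1a2, Col3a1, Pdgfra and Tcf21 had a median ratio of 0.06 and lay between −0.16 and 0.48.

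Of the laminin-binding alpha chains, Itga7 was the lowest at −0.49 ± 0.28, or 1.40-fold lower, and its probes, at −0.50 and −0.47, did not differ beyond their errors. Itga7 is the laminin receptor chain of muscle. The probes read 7.32 and 6.65 in the homozygous channel, against 7.82 and 7.12 in the heterozygous channel, and so were dim. The ratio was −0.86 with the scanner's own log ratio, −0.75 with an offset of 0 and −0.62 with median centring, each past 1.5-fold. Striated and cardiac muscle markers, with 7 of 7 below 0 and 6 of 7 at least 2-fold lower, moved in the same direction. Their intensities summed to 15123 in the homozygous and 45083 in the heterozygous channel, none was at background, and smooth muscle markers lay at a median of 0.27. The part of either muscle type in the Itga7 ratio was not tested. Itga3, an epithelial laminin receptor chain, was at 0.00 ± 0.20, and its brightest probe read 11.57 in the homozygous and 11.76 in the heterozygous channel.

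Itga4, a chain of leukocytes and of embryonic mesenchyme that binds Vcam1 and fibronectin, had the most divided probes. The probes with signal in both channels were lower in the homozygous channel, with 8.71 against 9.34 (−0.63 ± 0.22) and 6.79 against 7.35 (−0.56 ± 0.29). The others, near background in the heterozygous channel, were at 0.17 ± 0.51 and 0.30 ± 0.42. The median of the 4 was −0.19, but −0.59 when only probes above background in both channels were kept, which would place Itga4 among the genes at least 1.5-fold lower. Its direction is thus the same in both readings and its size is not settled.

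The remaining alpha chains lay between −0.20 and 0.20. Itga5, the fibronectin receptor chain, read 9.78 in the homozygous and 9.68 in the heterozygous channel (0.10 ± 0.21). Itga8, a mesenchymal chain that binds nephronectin, read 12.35 in the homozygous and 12.51 in the heterozygous channel in its brightest probe (−0.15 ± 0.20), and Itga9 read 12.53 in the homozygous and 12.73 in the heterozygous channel (−0.20 ± 0.20). A further probe whose current symbol is Itga9, which the naming rule does not take, was at 0.35. The leukocyte chains all lay within their errors of 0. Itgal read 8.02 in the homozygous and 8.12 in the heterozygous channel (−0.10 ± 0.22), Itgax 7.33 in the homozygous and 7.19 in the heterozygous channel (0.14 ± 0.28), and Itgam 7.01 in the homozygous and 6.84 in the heterozygous channel (0.17 ± 0.31). Itgae, the partner of Itgb7 on mucosal T cells, was the highest alpha chain, with 7.52 in the homozygous and 7.32 in the heterozygous channel (0.20 ± 0.24). Over the 7 members used by leukocytes the median was 0.01 and none passed 1.5-fold, while 7 leukocyte markers had a median of 0.22. The median of the 16 measured alpha chains was −0.03, with 11 of 16 below 0, against 50.4% of all genes. With median centring that median was −0.02, against 0.22 for all genes, and 8 of 16 lay below 0, against 37.1% of all genes.

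**Figure D2:**
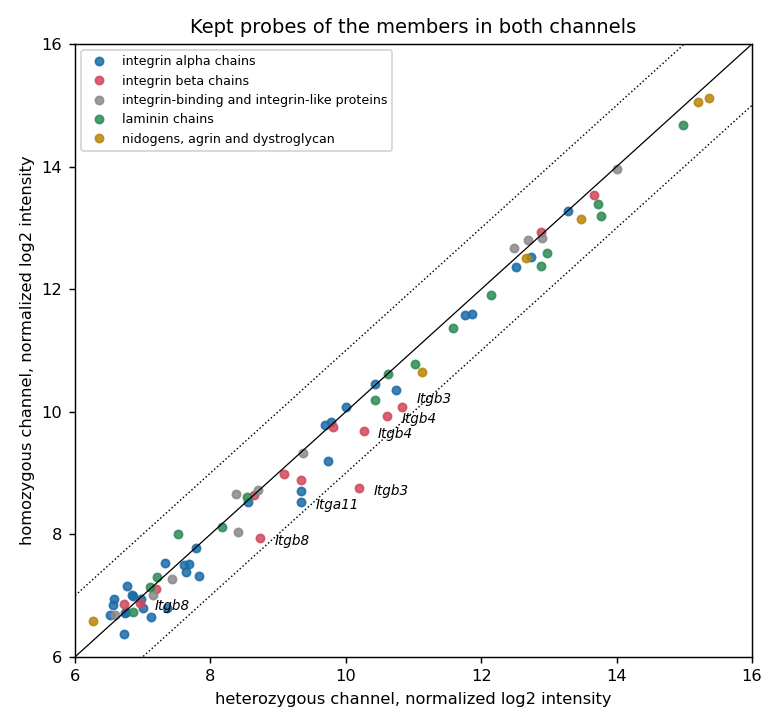
Normalized log2 intensity in the homozygous channel (y axis) against the heterozygous channel (x axis) for the 80 kept probes, coloured by class. The solid line marks equal levels and the dotted lines 2-fold differences. Probes follow the solid line over the whole range, and the only probe beyond a dotted line is the downstream Itgb3 probe, at 8.76 against 10.20.

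Laminin chains showed small differences, mostly to the lower side. No chain passed 1.5-fold in either direction. Of 10 ratios 8 were below 0, against 50.4% of all genes, and 1 of 10 with median centring, against 37.1% of all genes. The median was −0.13, with a range from −0.50 to 0.48, and turned to 0.28 with median centring. Lama4, the alpha chain of vessel walls and mesenchyme, was lowest at −0.50 ± 0.21, or 1.42-fold lower. Its probes read 13.20, 12.37 and 10.77 in the homozygous channel, against 13.77, 12.88 and 11.02 in the heterozygous channel, with ratios of −0.57, −0.50 and −0.25. All of its kept probes were thus lower in the homozygous channel. The endothelial markers Pecam1, Cdh5, Kdr, Tek and Tie1 had a median of −0.05 and ran from −0.38 to 0.13.

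Lama5, the main alpha chain of the fetal airway basement membrane, read 12.59 in the homozygous and 12.97 in the heterozygous channel (−0.38 ± 0.21). The chains that assemble with Lama5 or Lama4 leaned in the same direction, as Lamc1 read 14.68 in the homozygous and 14.97 in the heterozygous channel (−0.29 ± 0.21), Lamb2 read 11.36 in the homozygous and 11.59 in the heterozygous channel (−0.22 ± 0.21), and Lamb1 read 13.48 in the homozygous and 13.85 in the heterozygous channel (−0.37 ± 0.21). Each of these differences exceeds its scanner error, and all of them except that of Lamb2 exceed the 0.27 spread between probes. The signs of the members among them turned with median centring, where Lama4 was at 0.10, Lama5 at 0.24, Lamb2 at 0.34 and Lamc1 at 0.51, against 0.22 for all genes. With the scanner's own log ratio they stayed negative.

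Lama3 and Lamb3, epithelial chains of the laminin to which hemidesmosomes attach, were closer to 0. Lama3 was at −0.08 ± 0.23 with probes at −0.25 and 0.09, and Lamb3 at −0.01 ± 0.20. Lamb3 read 10.61 in the homozygous and 10.62 in the heterozygous channel, and the brighter probe of Lama3 read 11.90 in the homozygous and 12.15 in the heterozygous channel. The probes of Lama3 thus had opposite signs. The laminin that holds these chains is a ligand of the Itga6 and Itgb4 pair, of which only Itgb4 was past 1.5-fold. Lama2, the muscle laminin chain, was at −0.12 ± 0.21 over probes from −0.23 to −0.06, and its 9-spot probe read 10.19 in the homozygous and 10.42 in the heterozygous channel. It did not share the low ratios of the muscle markers.

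Lama1, known from early embryonic basement membranes, had the highest ratio of the laminins and of all 45 genes. It read 8.004 in the homozygous and 7.53 in the heterozygous channel, 1.39-fold higher (0.48 ± 0.24). The ratio was 0.64 with an offset of 0 and 0.88 with the scanner's own log ratio, both past 1.5-fold, and 0.15 when its second probe, not above background in either channel, was averaged in. With median centring Lama1 was at 0.52, against 0.22 for all genes, and was no longer the highest. Lamc1 and Lamb3 were then at 0.51, and Itgb5 (0.68), Itgb4bp (0.67), Itgb1bp1 (0.63) and Nid1 (0.61) were higher than Lama1. Lamc3 was dim, with 7.13 in the homozygous and 7.10 in the heterozygous channel (0.03 ± 0.27).

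Nidogens and dystroglycan had ratios below 0, which turned to above 0 with median centring, and agrin had probes of opposite sign. Nid1 read 15.12 in the homozygous and 15.36 in the heterozygous channel (−0.24 ± 0.21), and Nid2 12.50 and 12.66 in the same channels (−0.16 ± 0.20). Dag1, which encodes dystroglycan, was the lowest of the 4 at −0.40 ± 0.21, with probes at 13.15 and 10.65 in the homozygous channel against 13.47 and 11.13 in the heterozygous channel. Agrn, an extracellular heparan sulfate proteoglycan, had a bright probe at 15.05 in the homozygous and 15.20 in the heterozygous channel (−0.15 ± 0.20). A dim probe with signal in the homozygous channel only lifted its median to 0.09. The median of the 4 genes was −0.20, which became 0.38 with median centring, against 0.22 for all genes.

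The 7 genes caught by name alone encode proteins with other tasks, and none passed 1.5-fold. Itgbl1, a secreted protein with integrin-like repeats, was lowest at −0.37 ± 0.21, with 8.04 in the homozygous and 8.41 in the heterozygous channel. Itgb1bp1, which binds the Itgb1 tail, was highest at 0.20 ± 0.21, with 10.73 in the homozygous and 10.53 in the heterozygous channel and probes at 0.11 and 0.28. Itgb4bp is the older name of the translation factor Eif6 and was at 0.02 ± 0.20, with its brightest probe at 13.95 in the homozygous and 14.00 in the heterozygous channel. Itgb3bp, a centromere protein, read 11.08 in the homozygous and 11.13 in the heterozygous channel (−0.05 ± 0.20). Itgb1bp2 (melusin) and Itgb1bp3 (now Nmrk2) are known from striated muscle, yet stood at −0.14 ± 0.28 and −0.16 ± 0.24, far from the −2.45 median of the muscle markers. Both were dim, with homozygous levels of 7.01 and 7.28 against heterozygous levels of 7.14 and 7.43.

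Grouped by the cells that use them, the members showed no group past 1.5-fold as a median. The 11 measured epithelial members had a median of −0.08 and the 8 of muscle and mesenchyme −0.18. Those of the 9 in wide use and the 3 of platelets were −0.16 and −0.20. With median centring these medians were 0.24, 0.10, 0.44 and −0.44 in the same order, against 0.22 for all genes. The epithelial markers Cdh1 and Epcam, at 0.26 and 0.37, lay on the other side of 0 from Krt8 and Krt18, at −0.36 and −0.34, while with median centring all of these markers lay above 0. Airway secretory markers were all at least 2-fold lower, with a median of −1.99 over 4 genes. Of the 11 epithelial members, 9 lay below 0, against 50.4% of all genes, and 4 with median centring, against 37.1%. The part of airway secretory cells in the ratios of these members was not tested. Basal cell markers, another place of Itgb4 use, had a median of −0.17, and 1 of 4 (Krt5, −0.69) was at least 1.5-fold lower. Their intensities summed to 885 in the homozygous and 1068 in the heterozygous channel, and their part in the Itgb4 ratio was not tested.

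**Figure D3:**
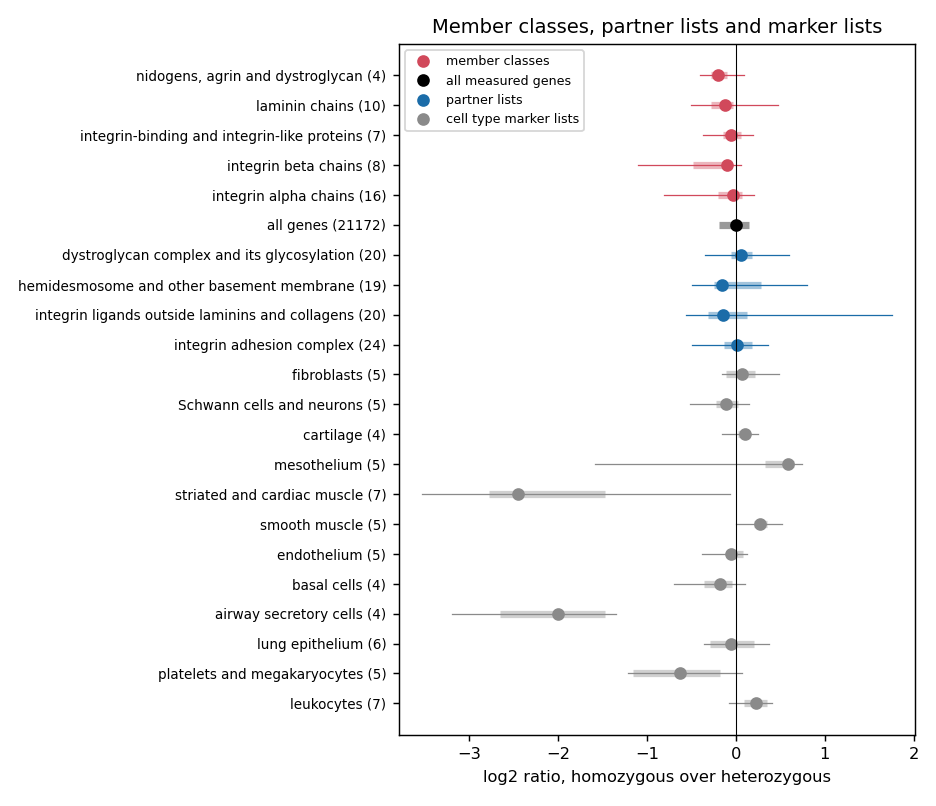
Log2 ratio of the homozygous over the heterozygous channel (x axis) for the member classes, all measured genes, partner lists and cell type marker lists (rows, with the number of measured genes). Dots are medians, thick bars interquartile ranges and thin lines the lowest and highest gene (not drawn for all genes). Medians of the member classes lie between −0.20 and −0.03, while those of the muscle and airway secretory markers are −2.45 and −1.99.

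No listed gene that works with integrins and laminins was at least 1.5-fold lower, against 5.87% of all genes. The median ratios of their lists, between −0.15 and 0.06, all lay between 0.28 and 0.43 with median centring, against 0.22 for all genes. Of 24 genes of the adhesion complex inside the cell, such as the talins, kindlins, paxillin and Ptk2, all were measured, none passed 1.5-fold in either direction, and the median was 0.01. The lowest was the tetraspanin Cd9 at −0.50 and the highest the parvin Parvg at 0.37. Of 20 other integrin ligands, 1 was at least 1.5-fold higher, against 2.10% of all genes. This was the matricellular Ccn3, at 1.75 ± 0.28 from 1 probe. Periostin (Postn) was lowest at −0.55, and nephronectin (Npnt), the ligand of Itga8, stood at −0.49.

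Of 19 measured genes of hemidesmosomes and other basement membrane parts, 2 were at least 1.5-fold higher, against 2.10% of all genes, and none was lower. They were Col17a1, a transmembrane collagen of hemidesmosomes, at 0.80 ± 0.45 with probes at 0.47 and 1.13, and the calcium-binding matrix protein Smoc2 at 0.60 ± 0.22. The main type IV collagen chains Col4a1 (−0.34) and Col4a2 (−0.26) lay on the side of Lamc1 and Nid1. Col17a1, dim at 7.99 in the homozygous and 7.19 in the heterozygous channel, was thus higher in the homozygous channel, and Itgb4 of the same structure lower. The other hemidesmosome genes of the list lay on the side of Itgb4. They were Plec at −0.41 ± 0.21, with probes from −0.41 to 0.09, and Dst at −0.25 ± 0.38. Of 20 genes of the dystroglycan complex and of the enzymes that glycosylate dystroglycan, none was at least 1.5-fold lower, with a median of 0.06 against −0.40 for Dag1 itself.

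The series asks about effectors of Foxj1, so the promoters of the members were searched for the forkhead core TAAACA and for the X-box arm GTTGCC, a sequence of RFX factors that work with Foxj1, each on both strands and counted separately. The window was the 250 bases before each gene start in RefSeq GRCm38.p6, which lists 35 such promoters for 30 of the 46 genes. The forkhead core was in 3 of the 35 (8.57%, against 12.03% of all 32851 promoters), those of Itgav, Itgb6 and Lamb3. The X-box arm was in 2 (5.71%, against 10.4%), those of Itgb5 and Itgb8. None of these genes was past 1.5-fold, and a match describes letters in the window and not a binding site.

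**Figure D4:**
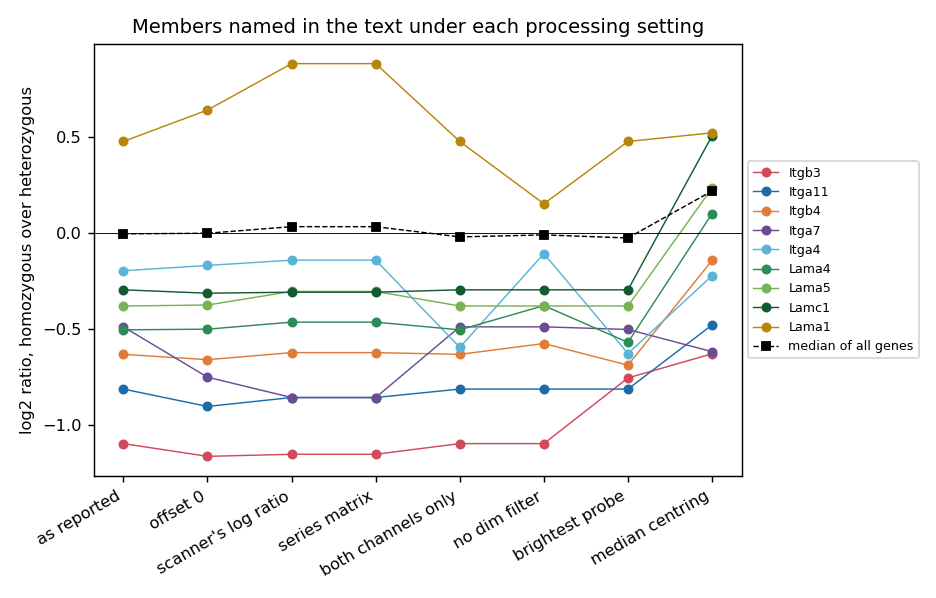
Log2 ratio of the homozygous over the heterozygous channel (y axis) of the labelled members and the median of all measured genes (black squares) under each processing setting (x axis). Lines join values of a gene. Itgb3 stays the lowest except with the brightest probe, Itga7 is lower and Lama1 higher with the scanner's own log ratio and with the series matrix, and median centring lifts Lama4, Lama5 and Lamc1 above 0.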

How the data were processed

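The array held both RNAs, each amplified from 100 ng of total RNA per the labels' protocols. The 2 deposited scanner files were byte for byte the same and were used once. The submitters' processing notes name Agilent Feature Extraction 9.5.3.1 as software. Spot and background intensity values were deposited on a linear scale, per the file headers, as was the software's log10 ratio of red over green after background subtraction and dye normalization. Set against the scanner file, the authors' series matrix proved to be the processed intensity of the matching channel multiplied by 1.68, never under 15 (SD of the log2 factor 0.0014 for the homozygous and 0.0013 for the heterozygous sample). Its medians are 138.8 (homozygous) and 139.8 (heterozygous). Its scale is thus linear, without centring, and its columns run as labelled.

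From the mean signals, background was corrected by normexp with an offset of 50, and log2 ratios were loess-normalized with control spots at weight 0 (limma 3.58.1, R 4.3.3), a step tested on simulated data. Because of this offset, dim probes give ratios that are too small. Controls were dropped, as were 169 spots marked as outliers (1 on a member), and 0 spots were saturated. Probes were kept when more than a 0.5 share of their spots was well above background in either channel, and their median gave the gene's value (Python 3.11.15, numpy 2.4.6, pandas 2.3.3, matplotlib 3.10.9). Probes outside the rule were named through a RefSeq list of genes, assembly GRCm38.p6, and all 46 members were found in it. A class is described by its counts and median beside those of all measured genes. The 1.5-fold and 2-fold limits are rules of size.

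The text names, in each class, members past 1.5-fold or otherwise the lowest and highest, those with 1 measured channel, those with probes of opposite sign of which 1 is past 1.5-fold, and the one with the brightest probe, and partners past 1.5-fold. Other members, and partners short of 1.5-fold, were added after their values were seen. The members, lists and alternatives were chosen with earlier results of these data known. The alternatives changed the offset, the scaling, the source of the ratio, the filters, the way probes are combined and the naming of members. Values of some genes, 1 member among them, are not reported here, although they are part of the counts and medians.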

Additional observations from a re-analysis of the deposited data

How the results depend on the processing

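With 1 array and no dye swap, no difference could be set against the spread between animals, and dim probes limit Itga7, Itga4, Itga2b, Itgb2l and Lama1. No paired analysis was possible because each genotype has 1 lung. Of the 447 values of single members under 10 alternatives, 400 stayed within 0.27 of the reported value, 47 moved by more (26 of them with median centring) and the 2-fold difference of Itgb3 kept its sign in each. The count of members at least 2-fold lower was 0 in place of 1 with median centring (1.43% of all genes) and 0 with the brightest probe (2.20%). The count at least 1.5-fold lower was 5 in place of 3 with the brightest probe, where Itgb8 and Itga4 joined Itgb3, Itga11 and Itgb4. It was 4 with an offset of 0, with matrix values or with the software's own ratio, where Itga7 joined the 3, and 4 with probes measured in both channels, where Itga4 did. It was 2 with median centring (Itgb3 and Itga7) and 2 without the filter on dim probes (Itgb3 and Itga11). The share of all genes past that limit moved as well. It was 6.83% with the brightest probe, 9.51% with an offset of 0 and 11.1% with matrix values or the software's own ratio. With probes measured in both channels it was 6.28%, with median centring 6.33% and without the filter on dim probes 4.17%. On the higher side, 0 members passed 1.5-fold as reported, beside 2.10% of all genes. An offset of 0 raised this to 1 member, beside 4.24% of all genes. Matrix values gave 2 members, beside 8.23%, and the software's own ratio gave 3, beside 8.62%. Median centring gave 4 members, beside 22.7%. The share of all genes past that limit thus rose together with the count of members. Median centring moved the medians of the laminin chains to 0.28 and of nidogens, agrin and dystroglycan to 0.38, against 0.22 for all genes. The cause of these shifts was not tested.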
